A study of Homo sapiens with 12 samples.

Results

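The 10 genes described here encode inhibitors of the transcription factor NF-kappaB and proteins that end its activation. They were taken by symbol from a table of counts for 60483 genes: the inhibitor genes NFKBIA, NFKBIB, NFKBIE, NFKBID, NFKBIZ and BCL3, and TNFAIP3, TNIP1, TNIP2 and CYLD, whose products act on ubiquitin chains. All 10 were found and all 10 passed the filter on low counts, among 14412 genes tested. Poly(A) RNA of REC1, an established cell line from a human mantle cell lymphoma, was sequenced after the combination of ibrutinib and SPX5551, ibrutinib alone, SPX5551 alone, or DMSO, in each case at 4, 8 and 12 h. Ibrutinib is a covalent inhibitor of Bruton's tyrosine kinase (BTK), and the study's title describes inhibition of the chemokine receptor CXCR4, the inhibitor being SPX5551, named pol5551 in the table's column headers. DMSO is the solvent control, and the sources used here give no doses. Each treatment and time had 1 library (12 in all), with totals of 19336303 to 28934030 counts, so a treatment had 3 replicates, which were its 3 times. All libraries came from 1 cell line. Nothing says that they came from separate cultures, so the p-values measure spread among these samples alone, and that spread may be technical. It also holds any drug effect that changed between times and was not fitted, which cannot be told apart from noise with 1 library each.

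NF-kappaB dimers are held in the cytoplasm by IkappaB proteins. In B cells, signals from the antigen receptor pass through BTK to the IKK kinases, which mark IkappaB proteins for destruction and free NF-kappaB to enter the nucleus. Several inhibitor genes, NFKBIA and TNFAIP3 among them, are themselves NF-kappaB targets, so their transcripts rise when the factor is active and their products then restrain it.

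The label of each library's treatment and the column named in its description did not match. Treatments were assigned here by the column headers, which equal the titles. Under the assignment the descriptions name, the DMSO samples would take the combination columns, ibrutinib the DMSO columns, SPX5551 the ibrutinib columns and the combination the SPX5551 columns, and each ibrutinib difference that passed below turns round: NFKBIA is 1.02 higher on the log2 scale in ibrutinib-exposed libraries in place of 1.02 lower. Every treatment direction below rests on the headers. The B-cell markers were present in all libraries: 6 of 6 exceeded 1 CPM (counts scaled to a library total of 1000000) in the median library. T-cell markers summed to between 6.71 and 11.4 CPM in combination libraries, 7.61 and 9.88 in ibrutinib, 8.68 and 10.4 in SPX5551 and 8.69 and 8.87 in DMSO libraries, and 5 of 7 were at or under 1 CPM in the median library. Of the mantle cell lymphoma markers 2 of 3 exceeded 1 CPM, and CD5 did not. Myeloid markers summed to at most 2.18 CPM in any library, S100A8 and S100A9 being at 0 in all. Of the 8 stromal and epithelial markers 4 exceeded 1 CPM, and they summed to between 44.4 and 81.0 CPM in combination libraries, 66.0 and 95.6 in ibrutinib, 62.3 and 73.8 in SPX5551 and 57.9 and 78.6 in DMSO libraries. Their part in the results was not tested.

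The sequence just before the start of a gene is shown for the members on which the results turn, because NF-kappaB binds a short motif there at many of its targets. The windows are the 250 bases before each RefSeq start on GRCh38.p14. Where a gene had several starts, the window shown is that at the lowest coordinate among those with a match. It was thus chosen to hold a match. The TNFAIP3 stretch is limited to 30 bases of its window that an alternative first exon in GENCODE 29 also covers. Capitals mark a match to the kappaB consensus on either strand, written 5′ to 3′ on the gene's strand. The NFKBIA window lies at chr14:35404750-35404999 on the minus strand, the NFKBID window at chr19:35899744-35899993 on the minus strand, the TNFAIP3 stretch at chr6:137867188-137867217 on the plus strand and the NFKBIZ window at chr3:101827740-101827989 on the plus strand. The first 3 genes were lower in ibrutinib-exposed libraries, and NFKBIZ is shown as one that did not pass.
NFKBIA: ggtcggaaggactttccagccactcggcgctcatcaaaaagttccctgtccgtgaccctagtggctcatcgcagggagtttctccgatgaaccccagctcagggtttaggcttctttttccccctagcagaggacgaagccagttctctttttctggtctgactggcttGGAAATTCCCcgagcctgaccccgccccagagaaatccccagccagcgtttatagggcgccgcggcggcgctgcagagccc
NFKBID: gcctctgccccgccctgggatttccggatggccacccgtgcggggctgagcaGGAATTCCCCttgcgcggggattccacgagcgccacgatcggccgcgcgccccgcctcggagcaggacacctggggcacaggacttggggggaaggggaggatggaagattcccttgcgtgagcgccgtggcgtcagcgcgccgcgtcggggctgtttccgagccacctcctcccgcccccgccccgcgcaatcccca
TNFAIP3: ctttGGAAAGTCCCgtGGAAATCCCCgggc
NFKBIZ: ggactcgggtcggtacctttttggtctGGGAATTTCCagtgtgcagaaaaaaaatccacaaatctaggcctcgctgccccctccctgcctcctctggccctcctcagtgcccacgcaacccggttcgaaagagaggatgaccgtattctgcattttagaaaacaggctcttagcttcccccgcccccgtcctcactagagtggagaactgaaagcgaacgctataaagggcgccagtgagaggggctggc
The NFKBIA match ended 72 bases before the start, and TNFAIP3 held a pair of matches ending 58 and 46 bases before its start. The NFKBID match ended 189 bases before the start, a second RefSeq start of NFKBID had a match ending 83 bases before it, and the NFKBIZ match ended 214 bases before. RefSeq windows matched 9 of the 10 genes (all but NFKBIE, with 16 windows, some genes having several starts), and 7 of these 9 genes and 9 of the 16 windows held a consensus match. Over all 34943 windows of this length 5.2% held one, and over all 27305 genes 6.28%. The looser form GGGNNNNNCC, searched on both strands and containing every consensus match, occurred in 16 of 16 member windows and in 54.38% of all windows. NFKBIB (gggaatttcc, the same letters as in NFKBIZ), TNIP1 (gggactttcc) and CYLD (ggaaagtccc, the same letters as in TNFAIP3) also held a match, whereas the windows of BCL3 and TNIP2 held none. The consensus match was therefore present both in genes that were lower with ibrutinib and in genes that did not pass, and a match of letters is no measurement of binding.

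Levels differed widely among the members when scaled to the length of their merged exons. TNIP1 and TNIP2, adaptors that help the deubiquitinase A20 (the TNFAIP3 product) act on its targets, were the highest, at means over the 12 libraries of 30.2 and 28.6 CPM per kb. The IkappaB genes followed, with NFKBIE at 25.9, NFKBIA at 19.5 and NFKBIB at 19.5 CPM per kb. NFKBID stood at 8.47, NFKBIZ at 6.31, TNFAIP3 at 4.86, BCL3 at 4.68 and CYLD, a deubiquitinase of linear and K63-type chains, at 3.06 CPM per kb. The ranges over libraries of each neighbouring pair in this order overlapped. Relative variation followed another order: the highest library held 4.88 times the CPM of the lowest for NFKBID, 3.31 times for NFKBIA, 3.20 times for TNFAIP3 and 2.27 times for BCL3, but 1.49 times for NFKBIE.

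**Figure D1:**
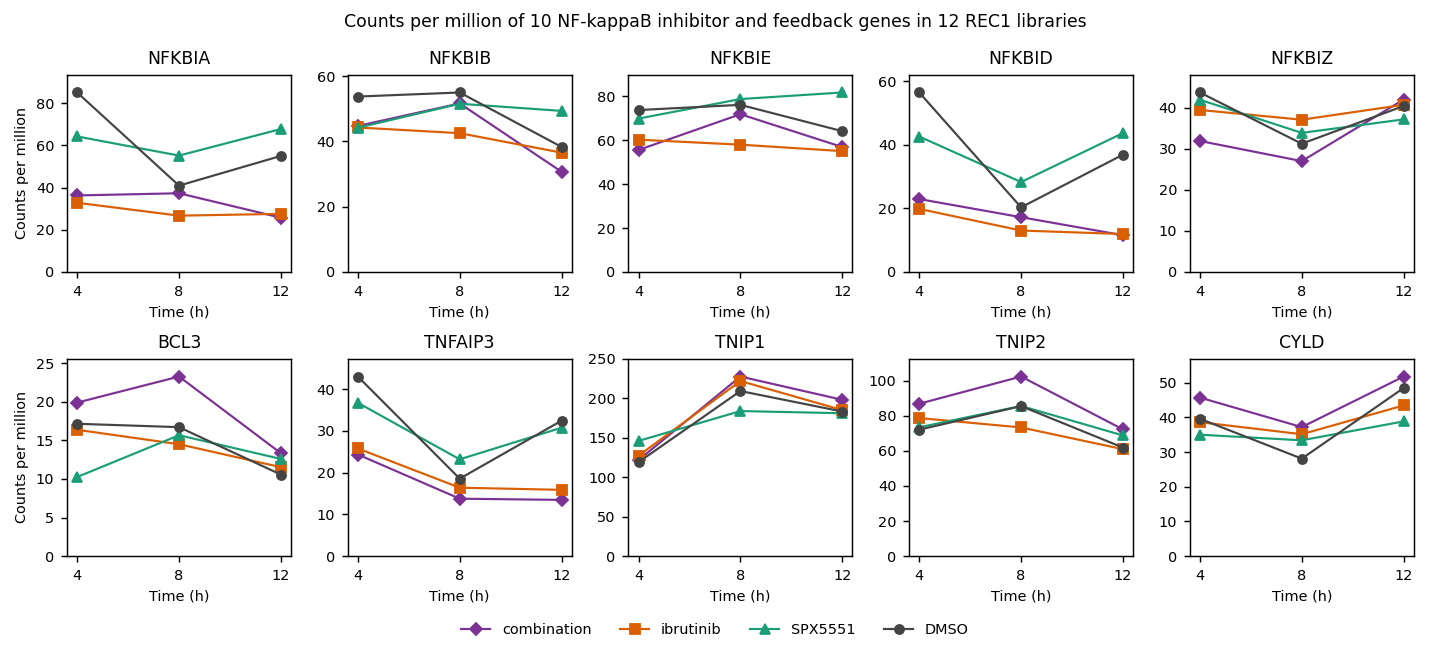
CPM (vertical axes, linear from 0) of the 10 genes at 4, 8 and 12 h, with 1 point per library and 1 line per treatment (no error bars, since each point is a single library). The combination and ibrutinib lines lie under the SPX5551 and DMSO lines for NFKBIA, where all 6 ibrutinib-exposed libraries are at 37.3 CPM or less and all 6 unexposed ones at 40.9 CPM or more, and the combination line comes close to the DMSO line at 8 h for NFKBIA (37.3 against 40.9 CPM) and NFKBID (17.2 against 20.3 CPM).

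The first question was what ibrutinib did to the classical IkappaB genes, whose products hold NF-kappaB in the cytoplasm. NFKBIA, the gene of IkappaBalpha (chr14:35401511-35404749, minus strand, hg38), had 36.3, 37.3 and 25.7 CPM in combination libraries at 4, 8 and 12 h. Ibrutinib libraries had 32.8, 26.7 and 27.6 CPM at the same times, against 64.3, 55.2 and 67.8 CPM in SPX5551 libraries and 85.1, 40.9 and 55.0 CPM in DMSO libraries. Every library with ibrutinib lay under every library without it, the nearest being the combination and DMSO libraries at 8 h. Over the 6 exposed and 6 unexposed libraries the log2 fold change was -1.02 ± 0.12 (SE), a fold of 0.493, with an adjusted p of 8.97e-05 by edgeR's quasi-likelihood test with Benjamini-Hochberg adjustment over all tested genes, the adjustment used throughout. Non-overlap in this direction was seen in 0.444% of the genes tested, and NFKBIA was the 1 member that showed it. In bulk RNA, fewer expressing cells and less RNA per cell cannot be told apart.

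NFKBIE, the gene of IkappaBepsilon (chr6:44258166-44265788, minus strand), moved less. It had 55.6, 71.8 and 56.9 CPM in combination libraries and 60.2, 58.0 and 55.0 CPM in ibrutinib libraries, against 69.8, 78.7 and 81.7 CPM in SPX5551 libraries and 73.7, 76.1 and 64.1 CPM in DMSO libraries. The exposed libraries were lower at each time, but the 8 h combination library exceeded the lowest unexposed ones, so the ranges overlapped. The log2 fold change was -0.37 ± 0.07, with an adjusted p of 0.00826 by edgeR. NFKBIB, the gene of IkappaBbeta (chr19:38899700-38908893, plus strand), had 44.7, 51.6 and 30.7 CPM in combination libraries and 44.3, 42.5 and 36.6 CPM in ibrutinib libraries, against 44.2, 51.5 and 49.4 CPM in SPX5551 libraries and 53.7, 55.0 and 38.3 CPM in DMSO libraries. Most of each range was shared between exposed and unexposed libraries. Its log2 fold change of -0.28 ± 0.09 passed narrowly (adjusted p = 0.0471, edgeR). It held in 4 of the 12 fits that each left out 1 library, the highest adjusted p among them being 0.127. NFKBIB also shares 40 exon bases with SIRT2 on the opposite strand, and no source used here says whether counting used strand.

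The second group comprised the nuclear IkappaB proteins, which bind NF-kappaB dimers on DNA and alter which genes they regulate. NFKBID, the gene of IkappaBNS (chr19:35887653-35902303, minus strand), changed most among the 10 genes. It had 23.0, 17.2 and 11.6 CPM in combination libraries and 19.9, 13.0 and 11.9 CPM in ibrutinib libraries, against 42.6, 28.3 and 43.7 CPM in SPX5551 libraries and 56.5, 20.3 and 36.9 CPM in DMSO libraries. At each time both exposed libraries lay under both unexposed ones, but the 4 h combination library exceeded the 8 h DMSO library. The log2 fold change was -1.27 ± 0.15, a fold of 0.414, with an adjusted p of 8.14e-05 by edgeR. NFKBID shares 111 exon bases with AD000864.1 on the same strand, so a share of its counts may belong to that transcript.

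NFKBIZ, the gene of IkappaBzeta, which in other cells activates a set of secondary response genes, did not pass. It had 31.9, 27.0 and 42.0 CPM in combination libraries and 39.5, 37.1 and 40.8 CPM in ibrutinib libraries, against 42.0, 33.9 and 37.2 CPM in SPX5551 libraries and 43.8, 31.3 and 40.5 CPM in DMSO libraries. Its log2 fold change with ibrutinib exposure was -0.12, with a 95% interval of -0.29 to 0.05 (adjusted p = 0.311, edgeR). BCL3, whose product binds homodimers of p50 and p52, had 19.9, 23.3 and 13.3 CPM in combination libraries and 16.4, 14.5 and 11.5 CPM in ibrutinib libraries, against 10.3, 15.7 and 12.6 CPM in SPX5551 libraries and 17.2, 16.7 and 10.6 CPM in DMSO libraries. The combination libraries were the highest at each time, and the other treatments crossed. Its log2 fold change with ibrutinib exposure was 0.19, with a 95% interval of -0.09 to 0.46 (adjusted p = 0.336, edgeR). The nuclear members thus differed in their values: 1 of 3 was lower and the intervals of the other 2 covered 0.

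Among the genes acting on ubiquitin chains, TNFAIP3 was the 1 of 4 that passed. Its product A20 removes and remodels ubiquitin chains on signalling proteins upstream of IKK, and the gene (chr6:137867188-137883312, plus strand) is often lost in B-cell lymphomas. It had 24.4, 13.8 and 13.5 CPM in combination libraries and 25.8, 16.4 and 15.9 CPM in ibrutinib libraries, against 36.8, 23.2 and 30.8 CPM in SPX5551 libraries and 43.1, 18.6 and 32.5 CPM in DMSO libraries. As with NFKBID, both exposed libraries were under both unexposed ones at each time, and the 4 h exposed libraries exceeded the 8 h DMSO library. The log2 fold change was -0.80 ± 0.10, a fold of 0.574, with an adjusted p of 2.85e-04 by edgeR. TNFAIP3 shares 95 exon bases with the antisense transcript AL357060.1.

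TNIP1 had 121.6, 227.4 and 197.9 CPM in combination libraries and 127.2, 221.7 and 184.9 CPM in ibrutinib libraries, against 145.8, 183.6 and 180.9 CPM in SPX5551 libraries and 118.9, 209.0 and 183.0 CPM in DMSO libraries. TNIP2 ranged over 61.0 to 102.5 CPM with ibrutinib and 62.0 to 85.7 CPM without it, and CYLD over 35.1 to 51.8 CPM with it and 28.1 to 48.5 CPM without it. Exposed and unexposed libraries overlapped over most of these ranges. The 95% intervals of the log2 fold change with ibrutinib exposure were -0.13 to 0.15 for TNIP1, -0.12 to 0.17 for TNIP2 and -0.03 to 0.29 for CYLD. CYLD shares 56 and 27 exon bases with the antisense transcripts AC007728.2 and AC007728.1.

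Counted together, 5 of the 10 genes were lower in ibrutinib-exposed than in unexposed libraries and none was higher, against 6.58% of all tested genes that were lower. The median log2 fold change was -0.20 over the 10 genes and 0.02 over all tested genes. In that fit NFKBID, NFKBIA and TNFAIP3 ranked 14, 15 and 19 by p among the 14412 genes. The 10 genes were chosen with earlier results of these data known. Their counts and ranks are therefore a description and no independent support. Without the 8 h or the 12 h time, 0.574% or 1.25% of all genes passed, against 13.7% with all times. In both fits 3 of the 10 genes passed, and these were the same 3: NFKBIA, NFKBID and TNFAIP3. Each of these 3 kept its call in 12 of 12 fits that left out 1 library and in 3 of 3 that left out 1 time. NFKBIE kept its call in 12 of 12 fits without 1 library, but in 1 of 3 without 1 time. Without the ibrutinib library of 8 h and the SPX5551 library of 12 h, NFKBIB was -0.14 (adjusted p = 0.31, edgeR) and NFKBIE -0.27 (adjusted p = 0.0239). Genes of these libraries followed transcript length relative to the other libraries (Spearman correlation 0.41 and -0.38). Length did not set them apart, since SPX5551 at 8 h (-0.40), DMSO at 12 h (0.37) and ibrutinib at 12 h (0.32) had values of like size. Not every library did, the combination at 4 h being at -0.02.

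**Figure D2:**
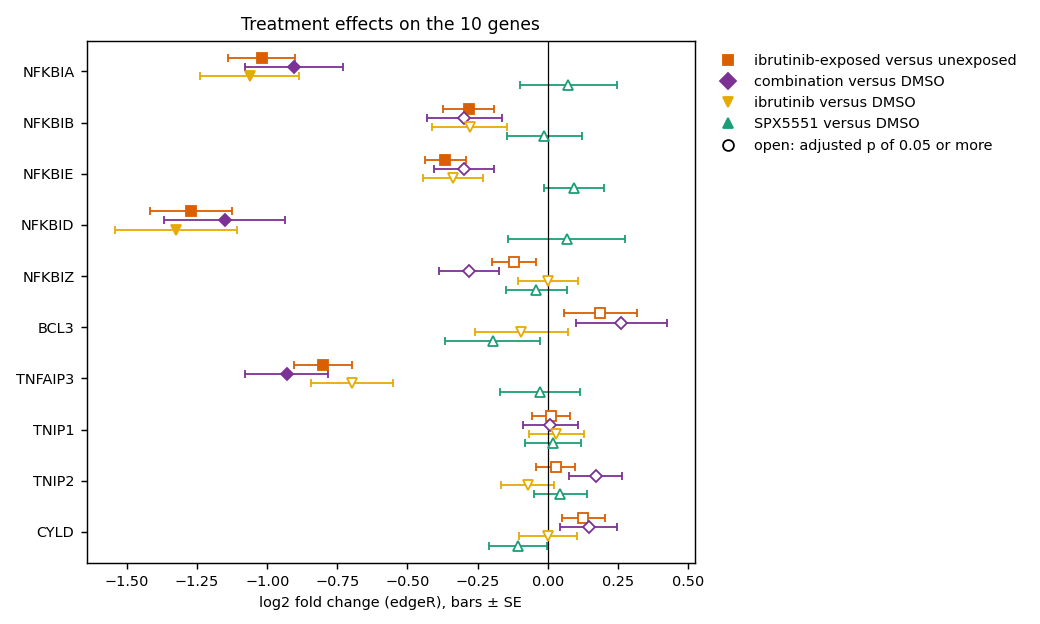
Log2 fold changes (horizontal axis, edgeR, bars ± SE) of the 10 genes for ibrutinib-exposed versus unexposed libraries (n = 6 each) and for the combination, ibrutinib and SPX5551 versus DMSO (n = 3 each). Filled symbols passed an adjusted p of 0.05. NFKBIA, NFKBID and TNFAIP3 stand left of 0 in the 3 comparisons with ibrutinib, from -1.33 to -0.70, and the SPX5551 symbols of all 10 genes lie between -0.20 and 0.09.

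Against DMSO, NFKBIA and NFKBID passed in the combination and with ibrutinib alone, and TNFAIP3 in the combination. In the combination, TNFAIP3 (log2 fold change -0.93 ± 0.15, adjusted p = 0.00138), NFKBID (-1.15 ± 0.22, adjusted p = 0.00425) and NFKBIA (-0.90 ± 0.18, adjusted p = 0.00533) were lower than in DMSO by edgeR, 3 of 10 genes against 5.41% of all genes. With ibrutinib alone NFKBID (-1.33 ± 0.22, adjusted p = 0.0205) and NFKBIA (-1.06 ± 0.18, adjusted p = 0.0214) were lower, 2 of 10 against 0.104% of all genes, while TNFAIP3 was at -0.70 ± 0.15 (adjusted p = 0.151, edgeR) and passed by DESeq2 (adjusted p = 0.00551). The 2 calls with ibrutinib alone depended on single libraries. Both were lost (0 of 10) without the DMSO 4 h, DMSO 12 h, ibrutinib 4 h, ibrutinib 12 h, SPX5551 8 h or combination 4 h library, where the log2 fold change over the fits without 1 library stayed between -1.29 and -0.82 for NFKBIA and between -1.60 and -1.14 for NFKBID. In the fits that lost both calls 0.0204% to 0.082% of all genes passed, against 0.104% with all libraries. Without the 4 h time 0 of 10 and 0% of all genes passed with ibrutinib alone. TNFAIP3 was then the 1 gene of the 10 that passed in the combination, where 1.89% of all genes passed. Fitted on the 6 combination and DMSO libraries alone, or without the ibrutinib 8 h and SPX5551 12 h libraries, the combination gave 6 of 10 genes lower, with NFKBIE, NFKBIB and NFKBIZ added. The share of all genes that passed in either direction also grew there, to 18.7% and 17.4% in that order, against 9.57% with all 12 libraries. These comparisons share the DMSO libraries, so their values are not independent.

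The effect of adding ibrutinib to SPX5551 used the SPX5551 libraries in place of DMSO. NFKBIA (-0.98 ± 0.18, adjusted p = 0.00513), NFKBID (-1.22 ± 0.21, adjusted p = 0.00488), TNFAIP3 (-0.90 ± 0.15, adjusted p = 0.00307) and NFKBIE (-0.39 ± 0.11, adjusted p = 0.0376) were lower in the combination than in SPX5551 by edgeR. These were 4 of 10 genes, against 3.97% of all genes. The NFKBIE call was lost in 5 of the 12 fits without 1 library, with adjusted p up to 0.15. Without the 4 h time 2 of 10 passed, NFKBIA and TNFAIP3, where 0.879% of all genes passed in either direction, against 7.24% with all times. BCL3 was at 0.46 ± 0.16 in the same comparison (adjusted p = 0.0925, edgeR) and passed without the ibrutinib 8 h and SPX5551 12 h libraries, at 0.67 ± 0.13 (adjusted p = 0.00212).

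SPX5551, the CXCR4 inhibitor, gave no call among the 10 genes. With SPX5551 alone against DMSO 0 of 10 genes and 0% of all genes passed by edgeR, while 1200 genes had an unadjusted p under 0.05, none of the 10 among them. DESeq2 and limma on the authors' log2 CPM also gave 0 of all genes. The 95% intervals were -0.29 to 0.44 for NFKBIA, -0.37 to 0.51 for NFKBID and -0.33 to 0.28 for TNFAIP3. For the combination against ibrutinib 0 of 10 passed, against 5.49% of all genes, and over all SPX5551-exposed against unexposed libraries 0 of 10, against 7.01% of all genes. These shares of all genes depended on single libraries. Without 1 library at a time they ran from 0.519% (without ibrutinib 8 h) to 8.43% (without SPX5551 12 h) for the combination against ibrutinib, and from 0.554% (without combination 8 h) to 12.2% (without SPX5551 4 h) for SPX5551 exposure, where 0 of 10 passed in each fit. In the combination against ibrutinib, NFKBIZ was lowest at -0.28 ± 0.11 (unadjusted p = 0.0191, adjusted p = 0.131, edgeR) and TNIP2 and BCL3 were at 0.24 ± 0.09 (unadjusted p = 0.0201) and 0.36 ± 0.16 (unadjusted p = 0.0435). NFKBIZ passed there without the combination 12 h library or without the 12 h time.

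The interaction, which asks whether the effect of both drugs together departs from the sum of their log2 effects, gave 0 of 10 genes and 0% of all genes by edgeR, while 845 genes had an unadjusted p under 0.05. DESeq2 gave 2 of all genes and limma 0, none of them among the 10. The departure was 0.08 for NFKBIA (95% interval -0.44 to 0.61), 0.11 for NFKBID (-0.54 to 0.75) and -0.21 for TNFAIP3 (-0.64 to 0.23). BCL3 had the largest of the 10 departures, 0.55 (95% interval 0.06 to 1.05, unadjusted p = 0.0308, adjusted p = 0.805). These intervals are as wide as several of the differences above.

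Time in culture moved the members in both directions. TNIP1 was higher at 8 h than at 4 h by 0.68 ± 0.09 (adjusted p = 9.72e-05, edgeR) and at 12 h than at 4 h by 0.45 ± 0.09 (adjusted p = 8.97e-04). TNFAIP3 was lower at 8 h (-0.86 ± 0.13, adjusted p = 2.42e-04) and at 12 h (-0.62 ± 0.13, adjusted p = 0.00149, edgeR) than at 4 h, over all treatments. NFKBID behaved likewise, at -0.79 ± 0.19 at 8 h (adjusted p = 0.00555) and -0.62 ± 0.19 at 12 h (adjusted p = 0.0162, edgeR). At 8 h against 4 h NFKBIZ (-0.31) and CYLD (-0.28) were also lower, making 4 of 10 lower and 1 higher, against 13.4% and 13.1% of all genes. At 12 h against 4 h NFKBIA (-0.41), BCL3 (-0.48), NFKBIB (-0.37) and TNIP2 (-0.33) were also lower, making 6 of 10 lower and 1 higher, against 17.5% and 18.4% of all genes. Fewer of them passed without single libraries: 3 of 10 genes at 12 h without the DMSO 4 h or the combination 12 h library and 4 without the DMSO 12 h, ibrutinib 4 h or combination 4 h library, and 3 at 8 h without the DMSO 4 h or DMSO 8 h library. The share of all genes was lower as well: in these fits 24.1% to 27.3% of all genes passed at 12 h, against 35.9% with all libraries, and 18.2% and 16.8% at 8 h, against 26.6%. TNFAIP3, TNIP1 and TNIP2 passed at 12 h in 12 of 12 such fits, and TNFAIP3, TNIP1 and NFKBID at 8 h in 12 of 12. Time and library cannot be told apart within a treatment, since each has 1 library per time.

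The ibrutinib difference was set out by time, with 2 exposed and 2 unexposed libraries at each. At 4 h NFKBID (-1.27 ± 0.18, adjusted p = 0.00631) and NFKBIA (-1.17 ± 0.19, adjusted p = 0.0126) passed by edgeR and TNFAIP3 was at -0.71 ± 0.15 (adjusted p = 0.0919, and passing by DESeq2), 2 of 10 lower against 0.18% of all genes. At 8 h NFKBID was at -0.72 ± 0.19, NFKBIA at -0.63 ± 0.18 and TNFAIP3 at -0.52 ± 0.15 (adjusted p = 0.323 for each, edgeR), 0 of 10 against 0.0278% of all genes, and 0 of 10 by DESeq2 and limma. NFKBID, NFKBIA, TNFAIP3 and NFKBIE had an unadjusted p under 0.05 there. At 12 h NFKBID (-1.84 ± 0.19, adjusted p = 4.19e-04), TNFAIP3 (-1.18 ± 0.15, adjusted p = 0.00268) and NFKBIA (-1.27 ± 0.19, adjusted p = 0.00857) passed, 3 of 10 lower against 0.215% of all genes. The smaller values at 8 h stood beside the low 8 h DMSO library, which held 40.9 CPM of NFKBIA, 20.3 of NFKBID and 18.6 of TNFAIP3, the lowest unexposed value of each. The 8 h SPX5551 library was also the lowest of its treatment for these genes, at 55.2, 28.3 and 23.2 CPM in that order. The test of a difference between times gave 0 of 10 genes and 0% of all genes by edgeR, while 252 genes had an unadjusted p under 0.05, among them NFKBID (unadjusted p = 0.00307) and TNFAIP3 (unadjusted p = 0.0227). DESeq2 gave 2 of all genes and limma 0, none among the 10. Leaving out a library of a time left 1 in an arm there, and the calls at single times did not all hold in the fits without 1 library. Over those fits the log2 fold change at 4 h stayed between -1.51 and -0.84 for NFKBIA and between -1.615 and -0.94 for NFKBID. At 12 h it stayed between -1.45 and -1.09 for NFKBIA, -1.99 and -1.70 for NFKBID, and -1.31 and -1.06 for TNFAIP3.

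**Figure D3:**
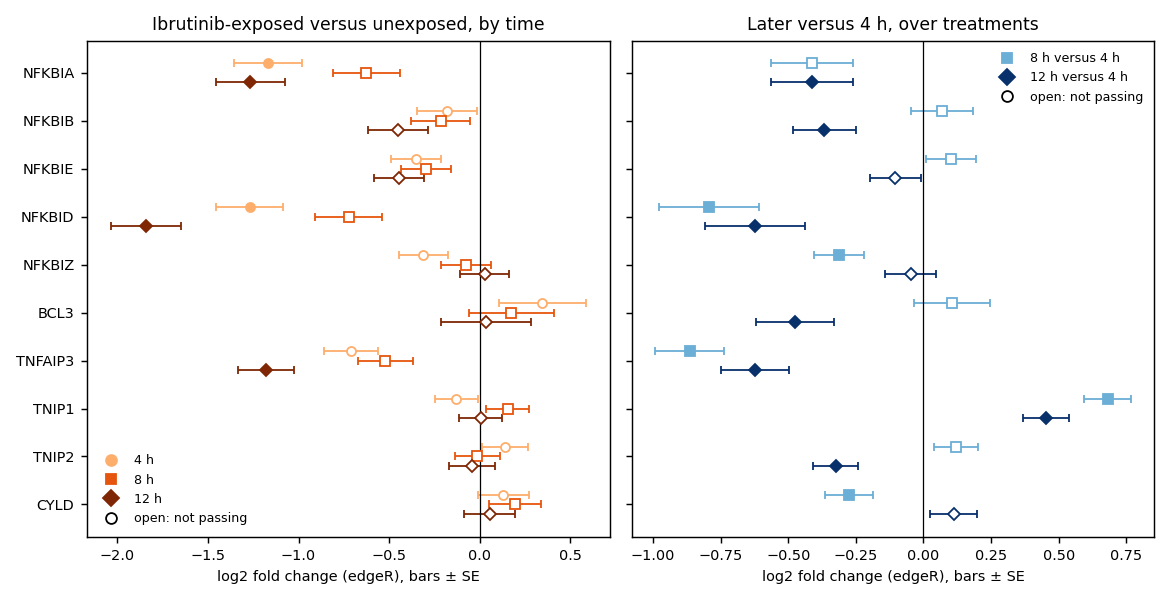
Log2 fold changes (horizontal axes, edgeR, bars ± SE) of the 10 genes: left, ibrutinib-exposed versus unexposed libraries at 4, 8 and 12 h (n = 2 each); right, 8 h and 12 h versus 4 h over all treatments (n = 4 each). Filled symbols passed an adjusted p of 0.05. NFKBID reaches -1.84 at 12 h against -0.72 at 8 h, and on the right TNIP1 is the 1 gene with filled symbols to the right of 0.

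With 1 library per treatment, each time was also described without a test, counting genes over 1.5-fold lower. In the combination against DMSO these were 3 of the 10 genes at 4 h, 0 at 8 h and 3 at 12 h, against 7.61%, 5.88% and 5.73% of all genes. In ibrutinib against DMSO they were 3 at 4 h, 2 at 8 h and 3 at 12 h, against 6.16%, 7.01% and 4.38% of all genes. Where 3 were counted they were NFKBIA, NFKBID and TNFAIP3, and at 8 h TNFAIP3 was the 1 not past the fold with ibrutinib alone. NFKBID differed from DMSO by -1.38 at 4 h, -0.30 at 8 h and -1.76 at 12 h (log2 CPM) in the combination and by -1.56, -0.68 and -1.63 in ibrutinib.

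**Figure D4:**
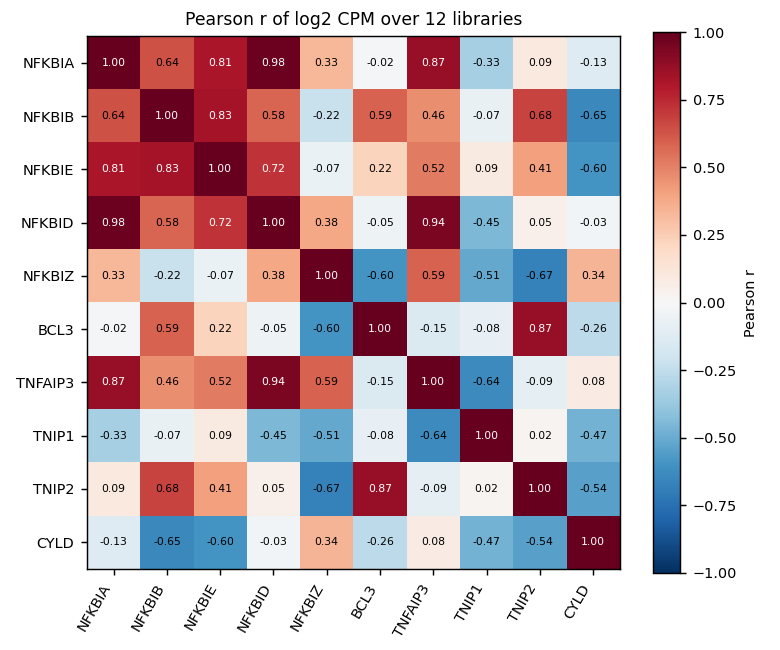
Pearson r of log2 CPM between each pair of the 10 genes over the 12 libraries (colour scale from -1 to 1, value printed in each cell). NFKBIA, NFKBID and TNFAIP3 form the block with r of 0.87 to 0.98, and TNIP2 and BCL3 have r = 0.87.

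Across the 12 libraries, which share treatments, times and depth, NFKBIA and NFKBID had r = 0.98 and NFKBID and TNFAIP3 r = 0.94. After the treatment and time means were removed, r was 0.92 and 0.93 for these pairs and 0.74 for NFKBIA and TNFAIP3. High values were not particular to these 3 genes: NFKBIB had r = 0.90 with BCL3 and 0.87 with NFKBIE. Among 10110 genes with a mean log2 CPM of at least 2, NFKBIA's nearest were NFKBID (r = 0.979), SIAH2 (0.953) and CD83 (0.936), over 12 libraries. NFKBID's were NFKBIA, CD83 (0.971) and SIAH2 (0.941), and TNFAIP3's were CD83 (0.977), CD80 (0.962) and NFKB2 (0.956). NFKBIE lay nearest to UCHL1 (0.947), ANP32B (0.940) and TRAPPC2L (0.940), and NFKBIB to NOL7 (0.973), ZNF593 (0.969) and EIF3G (0.963). The 3 strongly lowered genes thus had each other or CD83 as neighbours, and NFKBIE and NFKBIB had none in common with them. These correlations describe libraries that differ by design and carry no test.

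Other genes of the pathway were counted from lists. The lists were chosen with earlier results of these data known, so their counts are a description and no independent support. Of 21 other NF-kappaB targets, all tested, 15 were lower in ibrutinib-exposed libraries and 0 higher, against 6.58% and 7.14% of all genes. Their median log2 fold change was -0.54, against 0.02 over all genes. By p they were led by the chemokines CCL4 (-2.64 ± 0.20) and CCL3 (-2.33 ± 0.20), the activation marker CD83 (-1.48 ± 0.13) and the cytokine TNF (-2.67 ± 0.24), with adjusted p of at most 4.3e-06 by edgeR. The values of NFKBID and NFKBIA were smaller than those of these 4, a difference that was not tested. CCL4, CCL3 and TNF had low levels, with medians over the libraries of 1.86, 3.37 and 6.64 CPM. Their lowest libraries held 0.45, 0.57 and 0.44 CPM, whereas that of CD83 held 44.8 CPM. Against DMSO, 13 of the 21 were lower in the combination and 6 of 21 with ibrutinib alone, against 5.41% and 0.104% of all genes. Of the 5 NF-kappaB subunit genes, NFKB2 (-0.64 ± 0.13, adjusted p = 0.00799) and RELB (-0.46 ± 0.15, adjusted p = 0.0458), which form the dimer of the alternative arm, were lower with ibrutinib exposure by edgeR, and 0 were higher. The shares of all genes were 6.58% lower and 7.14% higher.

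The genes upstream of the inhibitors had a small median log2 fold change with ibrutinib exposure, 0.10 against 0.02 over all genes. Of 17 genes from BTK to IKK, 3 were higher and 0 lower in ibrutinib-exposed libraries, against 7.14% of all genes that were higher, with a median of 0.10: IKBKG (0.41 ± 0.08), the regulatory IKK subunit, which has a near-identical pseudogene copy and is uncertain for that reason, RNF31 (0.29 ± 0.08), the catalytic part of the linear ubiquitin ligase, and IKBKB (0.18 ± 0.06), an IKK kinase. Their adjusted p by edgeR were 0.00772, 0.0252 and 0.0498 in that order. Of 14 other negative regulators 13 were tested, with a median of 0.06: ZC3H12A, an RNase that degrades inflammatory transcripts, was lower (-0.45 ± 0.11, adjusted p = 0.019), and the deubiquitinases OTUD7B (0.24 ± 0.07, adjusted p = 0.0365) and OTULIN (0.20 ± 0.06, adjusted p = 0.0397) were higher, by edgeR, so 1 of 13 was lower and 2 were higher, against 6.58% and 7.14% of all genes. TNIP3 was in the list and did not pass the filter. Relative to DMSO, the combination had lower TRAF3 (-0.31 ± 0.09, adjusted p = 0.034) and ZC3H12A (-0.53 ± 0.16, adjusted p = 0.0484) and higher TAX1BP1, an A20 adaptor (0.28 ± 0.08, adjusted p = 0.0475), by edgeR, where 4.16% of all genes were higher.

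Fold changes followed transcript length in several comparisons. Across genes, the Spearman correlation of the log2 fold change with transcript length was 0.43 for ibrutinib against DMSO, 0.36 for ibrutinib exposure and 0.01 for the combination against DMSO. NFKBIA and NFKBID have short transcripts (percentiles 16 and 20.8 of the tested genes) and TNFAIP3 a longer one (percentile 71.2). With a trend in length and GC content removed, the ibrutinib-exposure values were -0.93 ± 0.10 for NFKBIA, -1.28 ± 0.13 for NFKBID and -0.85 ± 0.09 for TNFAIP3, and with ibrutinib alone TNFAIP3 passed at -0.76 ± 0.13 (adjusted p = 0.0187, edgeR). For the combination, NFKBIE (-0.38 ± 0.08, adjusted p = 0.00378) and NFKBIB (-0.37 ± 0.10, adjusted p = 0.0198) then passed against DMSO as well. The share of all genes that passed there also grew, to 15.4%, against 9.57% before the trend was removed. Before removal the ibrutinib-exposure values of NFKBIA, NFKBID and TNFAIP3 were -1.02, -1.27 and -0.80. All 3 were within 0.1 of these with the trend removed, NFKBIA being smaller in size and TNFAIP3 larger. The part of length in these differences was not tested.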

How the data were processed

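Per the labels' protocols, poly(A) RNA from REC1 cells was made into libraries with a directional kit and sequenced on a NextSeq2000. For alignment, the submitters' processing notes name BWA and hg38, while the counting tool, its annotation and strand setting, and the BWA version, are not stated in those sources. The labels also give genomic DNA as the molecule, which the RNA protocol contradicts. The deposited table holds raw counts per gene from the authors, and a second deposited table holds the authors' log2 CPM, which was used for one alternative. Gene IDs were matched to symbols and coordinates in GENCODE 29 (hg38), with 93.8% of IDs matched.

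Counts were tested in R 4.3.3 with edgeR 4.0.16: filterByExpr by treatment (14412 genes kept, 99.9% of counts), TMM scaling (factors 0.940 to 1.09), quasi-likelihood tests with treatment and time, or with ibrutinib exposure, SPX5551 exposure and time, over all 12 libraries, and Benjamini-Hochberg adjustment at 0.05. The common biological coefficient of variation was 0.101. Log2 CPM for per-time differences and correlations used a prior count of 2. CPM in the text is of the library total. Alternatives were DESeq2 1.42.0, limma 3.58.1 on the authors' log2 CPM, other scalings, no filter, no time term, removal of each library or time, the columns named in the descriptions, and a length and GC trend removed. The fits were tested on simulated data. Depth (totals of 19336303 to 28934030 counts) gave each member at least 204 counts in each library. Members and lists were chosen with earlier results of these data known. The naming rule covered all 10 members, the 3 most correlated genes of each member passing with ibrutinib exposure, and up to 4 genes with the smallest p among those passing in each list.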

Additional observations from a re-analysis of the deposited data

How the results depend on the processing

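The differences of NFKBIA, NFKBID and TNFAIP3 with ibrutinib exposure kept their direction and passed under each alternative tried, except that TNFAIP3 did not pass without the time term and the directions turned round with the columns that the descriptions name. With those columns NFKBIA was higher by 0.90 and NFKBID by 1.15 in ibrutinib than in DMSO (3 genes passing), and NFKBIA by 0.98, NFKBID by 1.22 and TNFAIP3 by 0.90 in the combination than in DMSO (4 passing). In the combination against SPX5551 NFKBIA was higher by 1.13, NFKBID by 1.39, NFKBIE by 0.43 and TNFAIP3 by 0.67 (4 passing), and with ibrutinib exposure NFKBIA by 1.02, NFKBID by 1.27, TNFAIP3 by 0.80, NFKBIE by 0.37 and NFKBIB by 0.28 (4 passing). At 4 h these were 1.16 for NFKBIA and 1.26 for NFKBID (0 passing). At 12 h they were 1.27 for NFKBIA, 1.85 for NFKBID and 1.18 for TNFAIP3 (2 passing). Of all genes 9.57% passed with those columns for ibrutinib and 7.24% for the combination against DMSO. The shares were 13.2% for the combination against SPX5551, 2.62% with ibrutinib exposure, 0.0902% at 4 h and 0.0624% at 12 h. By the headers they were 0.104%, 9.57%, 7.24%, 13.7%, 0.18% and 0.222% in that order.

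Without a time term 0 of the 10 genes passed in ibrutinib or the combination against DMSO or in the combination against SPX5551 (0%, 0.187% and 0.0347% of all genes), and 2 with ibrutinib exposure (0.201%). With no filter on low counts 2 passed at 8 h with ibrutinib exposure and 1 (NFKBID) for a difference between times. Over all genes, edgeR with the filter, DESeq2 and edgeR with no filter called 15, 40 and 216 for ibrutinib against DMSO, 0, 0 and 112 for SPX5551 against DMSO, 0, 2 and 32 for the interaction, 0, 2 and 21 for a difference between times, and with ibrutinib exposure 26, 54 and 127 at 4 h, 4, 11 and 214 at 8 h and 32, 73 and 280 at 12 h. With SPX5551 exposure these counts were 1011, 1534 and 1658. With scaling by library size only 3 passed at 8 h against 4 h, in place of 5, where 26.1% of all genes passed, against 26.6%. In the combination against DMSO 6 passed with only the 6 libraries compared, 6 without the ibrutinib 8 h and SPX5551 12 h libraries, and 5 with the length and GC trend removed. The causes were not tested.

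Leaving out 1 library or 1 time gave 0 to 3 passing genes for ibrutinib against DMSO and 1 to 4 for the combination against DMSO. It gave 2 to 4 for the combination against SPX5551, 0 to 1 for the combination against ibrutinib and 3 to 5 with ibrutinib exposure. Leaving out 1 library gave 3 to 7 at 12 h against 4 h and 3 to 6 at 8 h against 4 h. The share of all genes that passed moved in these fits too. It ran from 0% to 4.61% for ibrutinib against DMSO and from 1.89% to 11.3% for the combination against DMSO. For the combination it ran from 0.879% to 8.9% against SPX5551 and from 0.0136% to 11.3% against ibrutinib. With ibrutinib exposure it ran from 0.574% to 17.9%. Against 4 h it ran from 24.1% to 37.4% at 12 h and from 16.6% to 28.4% at 8 h. Where leaving out a library left 1 in an arm, its spread was assumed to equal that of the other groups. The labels carry no replicate numbers. Libraries of different treatments are paired by time, which is the block in each fit, and the fits without a time term are those without the block. Each treatment and time has 1 library, which limits the precision of the values at single times.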
